A study of Mus musculus with 6 samples.

Results

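The S100 proteins are a family of small calcium-binding proteins, described here at the level of their transcripts in the mouse aorta after a high fat diet or after chow. Of 10 listed genes, 9 (S100a1, S100a4, S100a6, S100a8, S100a9, S100a10, S100a13, S100a16 and S100b) had at least 1 probe set annotated to that gene alone, and together they had 12 of the 22626 probe sets on the array. The only probe set that carries the symbol S100a11 also carries 2 pseudogene or clone symbols, so that S100a11 was left out by the rule. S100b was put in the group for its higher values on the high fat diet, and these are therefore given as a description without a test. The remaining genes were listed as members of the family.

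Each of the 6 Affymetrix arrays carried labelled RNA of 3 pooled aortas, and each diet had 3 independent pools (n = 3 throughout). The aortas were described as freed of adventitia and of the fat around the vessel. On these arrays, with median signals of 58.4 to 66.6, the brown adipocyte marker Ucp1 was 2121.6 to 3664.2. The white adipocyte marker Adipoq was 1559.4 to 2189.5, and the adventitial fibroblast marker Dcn 3153.1 to 4545.1. How complete the removal was, was not tested. All mice were C57BL/6J, a wild-type inbred strain, and the labels named no genotype or agent other than the diet. The high fat diet lasted 16 to 18 weeks and began at 10 weeks of age in replicates 2 and 3. The label of high fat replicate 1 gave no start and an age of 16 to 20 weeks, and no sex, while the other 5 were labelled male. The age given for chow replicates 2 and 3 was 26 to 28 weeks, which is also what a start at 10 weeks and 16 to 18 weeks of diet give for high fat replicates 2 and 3. Chow replicate 1 had no stated age, so that the labels leave the age match of both first replicates unknown.

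S100 proteins fold around a pair of EF-hands, the helix-loop-helix motif that holds calcium, and most work as dimers that open on calcium binding and attach to a partner protein. Inside the cell they bind annexins, myosin and other targets. Several are also released and act on receptors such as RAGE (Ager) and TLR4. S100b is known from astrocytes, Schwann cells and adipocytes, S100a1 from heart and other striated muscle, and S100a8 with S100a9, which form calprotectin, from neutrophils and monocytes.

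In the RefSeq gene table (GRCm38.p6), 9 of the 10 listed genes lay on chromosome 3, and S100b lay apart on chromosome 10. S100a8 was followed by S100a9 as the next protein-coding gene, S100a11 by S100a10, and S100a1 by S100a13. The promoter windows of S100a1 and S100a13, on opposite strands, shared 204 of their 300 bases. The 250 bases before the annotated start of S100b are shown because S100b had the large diet difference, and the 60 bases before S100a4 and S100a8 because a TATA motif lies there. Capitals mark the E-box pattern CANNTG in S100b and, in the windows of S100a4 and S100a8, the TATA motif. The windows are chr10:76253586-76253835 (plus strand), chr3:90603710-90603769 (plus) and chr3:90669011-90669070 (plus).
S100b: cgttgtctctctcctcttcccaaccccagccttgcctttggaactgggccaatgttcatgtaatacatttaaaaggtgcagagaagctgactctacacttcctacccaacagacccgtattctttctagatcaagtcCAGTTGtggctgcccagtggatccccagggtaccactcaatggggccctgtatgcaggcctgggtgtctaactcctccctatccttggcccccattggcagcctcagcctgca
S100a4: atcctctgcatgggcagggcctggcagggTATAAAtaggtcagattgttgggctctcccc
S100a8: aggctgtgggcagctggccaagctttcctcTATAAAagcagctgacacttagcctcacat

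The motif TATAAA, searched on the gene's own strand over the 250 bases, began 31 bases before the start of S100a4 and 30 before that of S100a8. It was in none of the other 8 windows of the listed genes, S100b included, and in 7.59% of 32851 windows of the same length. CANNTG reads the same on both strands as a pattern and stood once in S100b, in 1 to 4 copies in 6 other listed genes, and in 66.2% of all windows. AGGTCA, the half-site of nuclear receptors, was searched on both strands. It was absent from the S100b window and in 14.02% of all windows. It began 24 bases before the start of S100a4 without overlapping its TATAAA, 221 before that of S100a16 in 1 of its windows and 243 before that of S100a11. S100a10 had no window in the table. These are matches of letters and say nothing of binding.

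S100b was the member with the large difference. Its signal at probe set 1419383_at was 43.9, 41.8 and 62.0 on chow replicates 1, 2 and 3 and 183.5, 130.6 and 78.4 on high fat replicates 1, 2 and 3. At probe set 1434342_at it was 75.3, 67.2 and 73.1 on chow and 222.9, 174.6 and 135.5 on high fat diet. All high fat arrays lay above all chow arrays at both probe sets. The lowest high fat signal was 1.26 times the highest chow signal at the first and 1.80 times at the second.

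The means of S100b were 130.8 ± 52.6 against 49.2 ± 11.1 (SD) at the first probe set, a ratio of 2.66, and 177.7 ± 43.8 against 71.9 ± 4.2 at the second, a ratio of 2.47. On the scale used for testing, log2(signal + 6), the difference was 1.25 and 1.21, above 99.9% of all 13575 probe sets that passed a filter on low signal. Both probe sets read the same 6 RNA pools and are not independent of each other. The high fat pools differed among themselves: replicate 1 was highest and replicate 3 lowest at both probe sets, with a coefficient of variation of 40.2% and 24.6%, against 22.6% and 5.8% on chow. Without high fat replicate 1, whose label differs, the log2 difference was 0.98 and 1.04.

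**Figure D1:**
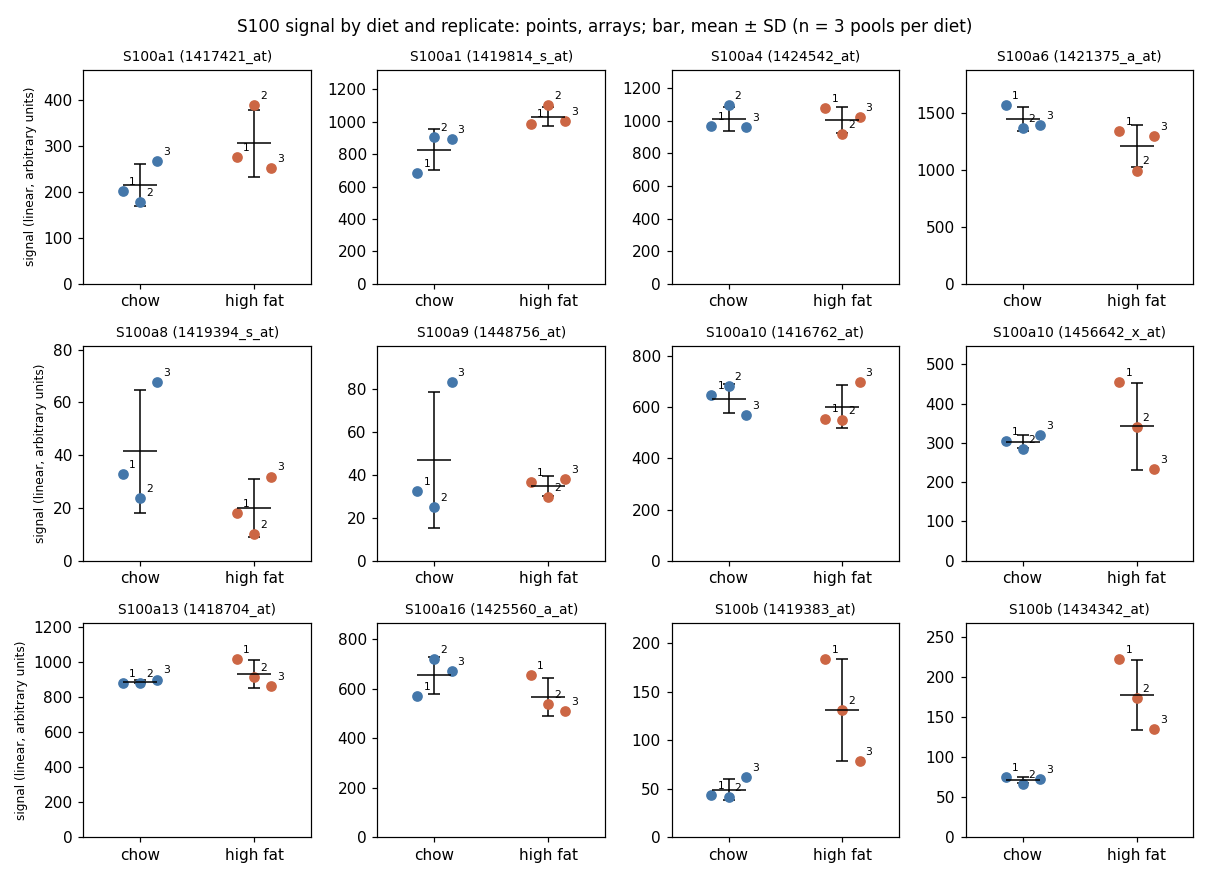
Signal of each of the 12 S100 probe sets (y axis, linear, arbitrary units, from 0) by diet (x axis). Each point is 1 array with its replicate number and each bar is the mean ± SD of 3 pools. At both S100b probe sets the high fat points lie above the chow points, while S100a8 and S100a9 are highest in chow replicate 3.

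Markers of cells known to make S100b moved unequally with it. Of 8 brown adipocyte markers, all 8 passed the filter, and the mean of each was higher in the high fat pools (median log2 difference 0.55). Of all probe sets tested, 48.17% were higher. The summed signal of the 8 markers was 6800.1 to 8995.4 on chow and 10541 to 12739 on high fat diet, which did not overlap. Ppara, a nuclear receptor for fatty acids, and Cox7a1, a respiratory chain subunit, had the smallest p of that list (adjusted p = 0.295 and 0.299, limma), and none passed. Before adjustment 6 of the 8 were at p under 0.05 (limma), against 7.03% of all probe sets. The list was chosen with earlier results of these data known and its markers were read in the same pools, so this share is a description. In the 3 high fat pools the brown list deviated from its mean over the arrays by 0.18, 0.42 and 0.32 (log2, replicates 1, 2 and 3), so that replicate 1, with the highest S100b, was the lowest of the 3 here. Single markers differed in this. Ucp1 (3664.2, 3622.7 and 3154.2 in high fat replicates 1, 2 and 3) and Cox7a1 (1016.9, 971.6 and 844.2) stood in the order of S100b. The other markers of the list did not.

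Schwann cell and nerve markers with a probe set of their own numbered 9 of 13, and none was listed at 0. Their summed signal of 2622.2 to 2937.1 on chow overlapped that of 2609.2 to 3085.7 on high fat diet. Of the 6 above the filter, 5 had higher means and none passed. Sox10, the glial transcription factor, was 62.7, 69.3 and 94.8 on chow and 97.0, 141.6 and 77.1 on high fat diet (adjusted p = 0.766, limma), and Mbp, a myelin protein, was 63.5, 70.8 and 100.8 against 123.7, 112.7 and 76.2 (adjusted p = 0.786). Gfap, which non-myelinating Schwann cells share with astrocytes, was 36.7, 46.4 and 37.8 against 31.5, 28.8 and 26.7, under the filter and lower in every high fat pool. Gap43, a growth cone protein also made by Schwann cells without myelin, went the other way under the filter, with 11.5, 6.1 and 8.2 against 17.1, 40.5 and 26.5, the largest difference of this list (log2 1.18).

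White adipocyte markers overlapped between the diets in summed signal (5593.3 to 7809.7 against 6734.7 to 7039.6), and 4 of the 5 above the filter had higher means. Lep, leptin, was under the filter with 7.8, 16.0 and 28.2 on chow and 111.4, 66.7 and 56.2 on high fat diet, a log2 difference of 1.89 without overlap. Its high fat pools stood in the same order as those of S100b. That order was not particular to adipocyte markers. Mbp had it too, as did Vwf, Kdr and Pecam1 of the endothelial markers and Tagln and Cnn1 of the smooth muscle markers. Other markers of these lists did not. Cidec, a lipid droplet protein, had 434.2, 401.4 and 426.5 against 449.0, 557.5 and 453.5, without overlap (log2 difference 0.20, adjusted p = 0.810, limma). Retn, resistin, went the other way: it fell from 386.0, 482.2 and 523.8 to 217.5, 215.4 and 217.8 (adjusted p = 0.0435, limma) and was the 1 gene of all the lists past the threshold. It did not pass with the replicate number as a block, with array medians made equal, without the filter or without a variance trend, nor when any 1 of the high fat pools, chow replicate 2 or chow replicate 3 was left out. Cartilage markers, a further tissue known for S100b, had a summed signal of 462.9 to 499.4 on chow and 438.5 to 584.9 on high fat diet. The part of these cells in the S100b difference was not tested, and in bulk RNA more cells of a type and more RNA per cell cannot be told apart.

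Apart from S100b, 8 S100 probe sets of 6 genes passed the filter and were tested, and none of them passed an adjusted p of 0.05 (limma). Over all probe sets 0.0737% passed (10 of 13575). The means of these 8 were higher on high fat diet for 4 and lower for 4, with a median log2 difference of 0.03, beside -0.01 over all probe sets tested. An unadjusted p under 0.05 was reached by 2 of the 8, both of S100a1, against 7.03% of all probe sets. The diets did not overlap for 2 of the 8, against 12.3% of all.

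**Figure D2:**
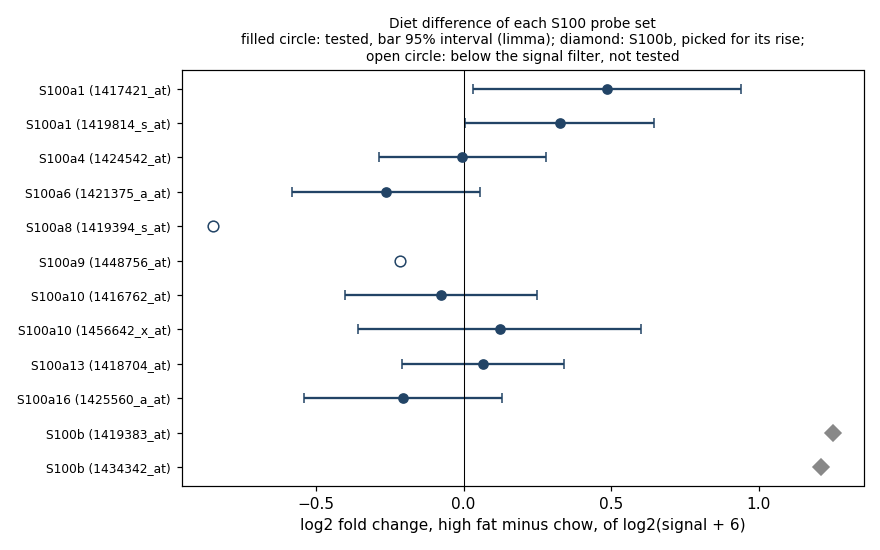
Difference between the diets for each S100 probe set (x axis, log2 fold change of signal + 6, high fat minus chow). Filled circles are tested probe sets with the unadjusted 95% interval of limma, diamonds are S100b, described without a test, and open circles are S100a8 and S100a9, under the filter. The 2 S100a1 intervals lie just above 0 and the other 6 intervals include it.

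S100a1, which binds the calcium pump and the calcium release channel of muscle, had higher means on high fat diet at both of its probe sets. Probe set 1417421_at had signals of 202.1, 177.8 and 266.7 on chow and 275.2, 388.3 and 252.7 on high fat diet. Chow replicate 3 lay above high fat replicate 3, so the diets overlapped, and the log2 difference was 0.49 ± 0.21 (SE, adjusted p = 0.678, limma). Probe set 1419814_s_at had signals of 683.7, 905.3 and 894.7 on chow and 988.4, 1100.8 and 1006.0 on high fat diet, without overlap. Its log2 difference was 0.33 ± 0.14 (adjusted p = 0.700, limma), and the suffix s_at marks a probe set that can bind several transcripts. Without high fat replicate 2 the first probe set had 0.30, and without chow replicate 1 the second had 0.19.

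Cardiac markers varied between pools of 1 diet. The mean of all 11 was higher in the high fat pools, but the median log2 difference of 0.69 moved with single pools. It was 0.08 without chow replicate 3, 0.21 and 0.32 without high fat replicates 2 and 3, 1.14 without chow replicate 2 and 1.60 without high fat replicate 1. None passed in limma, whether adjusted or at p under 0.05 before adjustment. The list deviated by -0.09, 0.40 and -1.39 in chow replicates 1, 2 and 3 and by -1.36, 1.37 and 1.07 in high fat replicates 1, 2 and 3. S100a1 followed that order in part. High fat replicate 2, the highest in cardiac markers, was the highest of the 6 arrays at both S100a1 probe sets, with deviations of 0.61 and 0.26, and at the second the high fat pools stood in the cardiac order. High fat replicate 1 and chow replicate 3, the pair lowest in cardiac markers, had deviations of 0.12 and 0.08 at the first probe set, above the -0.31 and -0.49 of the other chow pools. With the cardiac mean of each array as a covariate, which was added once the data had been seen, the log2 differences were 0.50 and 0.32 for S100a1 and 1.46 and 1.32 for S100b. Skeletal muscle markers had a median of -0.82 over the 4 above the filter, with 3 lower, and were highest in chow replicate 1, where S100a1 at 1419814_s_at was lowest. Without that pool the median was 0.05, and without chow replicate 2 it was -0.47. The part of skeletal muscle in the S100a1 values was not tested.

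S100a13, whose promoter window overlaps that of S100a1, is a partner of FGF1 in its release without a signal peptide. It had 880.4, 880.9 and 898.3 on chow and 1015.5, 912.3 and 862.8 on high fat diet. High fat replicate 3 was the lowest of all 6 arrays, the diets overlapped, and the log2 difference was 0.07, with a 95% interval of -0.21 to 0.34. The difference between S100a1 and S100a13 was not tested. Chow values of S100a13 had a coefficient of variation of 1.1%, the smallest spread among the 12 S100 probe sets within a diet. Fgf1 itself was 410.8, 438.2 and 372.2 on chow and 360.7, 309.2 and 440.7 on high fat diet, which overlapped.

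Among the members that bind annexins, S100a10, the partner of Anxa2 in a complex that holds plasminogen and its activator at the cell surface, was read by 2 probe sets that disagreed. Probe set 1416762_at had 647.5, 682.3 and 570.8 on chow and 556.4, 551.3 and 698.7 on high fat diet, a log2 difference of -0.08 (95% interval -0.40 to 0.25). Probe set 1456642_x_at had 305.5, 285.1 and 319.0 on chow and 454.8, 340.0 and 232.2 on high fat diet, a difference of 0.12 (95% interval -0.36 to 0.60). High fat replicate 3 was the highest of the 6 arrays at the first and the lowest at the second, so that their ratio within an array ran from 1.22 in high fat replicate 1 to 3.01 in high fat replicate 3, against 1.79 to 2.39 on chow. The suffix x_at marks a probe set whose probes can bind related transcripts, and without high fat replicate 1 its difference was -0.11. The direction of S100a10 therefore rests on the probe set and the pools used.

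S100a6, calcyclin, which binds Anxa11 and the calcyclin-binding protein Cacybp, had 1564.7, 1367.9 and 1394.6 on chow and 1335.4, 993.0 and 1297.0 on high fat diet. Every high fat pool lay below every chow pool, by a narrow margin except for replicate 2. The log2 difference was -0.26 ± 0.14 (SE, adjusted p = 0.752, limma), and -0.13 without high fat replicate 2. S100a16, a broadly expressed member, had 570.7, 719.4 and 670.4 against 654.2, 537.6 and 508.0, which overlapped, with a difference of -0.21 (95% interval -0.54 to 0.13). S100a4, a binder of non-muscle myosin known from fibroblasts and motile cells, had 968.9, 1094.1 and 962.2 against 1076.8, 918.7 and 1021.3. Its log2 difference was -0.0046 ± 0.13 (SE, 95% interval -0.29 to 0.28), and with quantile normalization it was 0.0069, so that S100a4 had no stable direction. Markers of adventitial fibroblasts also lay close together, with a median log2 difference of -0.09 and 5 of 8 lower.

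The calprotectin pair stayed under the filter, which lay at a signal of 40.7, and was not tested. S100a8 had 32.9, 23.6 and 67.7 on chow and 18.0, 9.9 and 31.9 on high fat diet. S100a9 had 32.3, 24.7 and 83.0 on chow and 36.6, 29.6 and 38.0 on high fat diet. Both were highest in chow replicate 3, and for both the diets overlapped. The log2 differences were -0.85 for S100a8 and -0.22 for S100a9. Without chow replicate 3 they were -0.48 and 0.24, so that the sign of S100a9 turned on that array. Signals this low could not be separated from background, since no detection calls were used.

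Of 13 neutrophil markers, 11 had a probe set of their own and 5 passed the filter, and none was listed at 0. Their summed signal was 319.4 to 455.3 on chow and 363.4 to 539.0 on high fat diet, with chow replicate 3 the highest of the chow pools but below high fat replicates 1 and 2. Padi4, an enzyme of neutrophil extracellular traps, was between 1.5 and 9.1 on all arrays. Mmp8 had 28.2, 34.7 and 47.3 on chow and 62.3, 58.0 and 30.4 on high fat diet (adjusted p = 0.843, limma). Ltf, lactoferrin, had 40.5, 68.2 and 86.7 on chow and 78.0, 100.6 and 56.0 on high fat diet (adjusted p = 0.880, limma). All 5 above the filter had higher means on high fat diet (median log2 difference 0.17), beside 48.17% of all probe sets tested. Csf3r, under the filter, had the largest difference of this list (log2 1.26). It was 9.1, 26.7 and 46.2 on chow and 102.3, 79.1 and 32.1 on high fat diet, which overlapped. Cxcr2 and Padi4, also under the filter, had lower means on high fat diet. The mean of all 10 macrophage markers was higher in the high fat pools (median log2 difference 0.62), beside 48.17% of all probe sets tested. In limma 8 of these markers were at p under 0.05 before adjustment, against 7.03% of all probe sets. This list too was chosen with earlier results of these data known, so the share is a description. None of the macrophage markers passed the adjusted threshold, or 1 without high fat replicate 1. Their summed signal of 2496.8 to 3364.2 on chow lay below that of 3537.8 to 5799.7 on high fat diet, whereas S100a8 and S100a9 had lower means there.

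**Figure D3:**
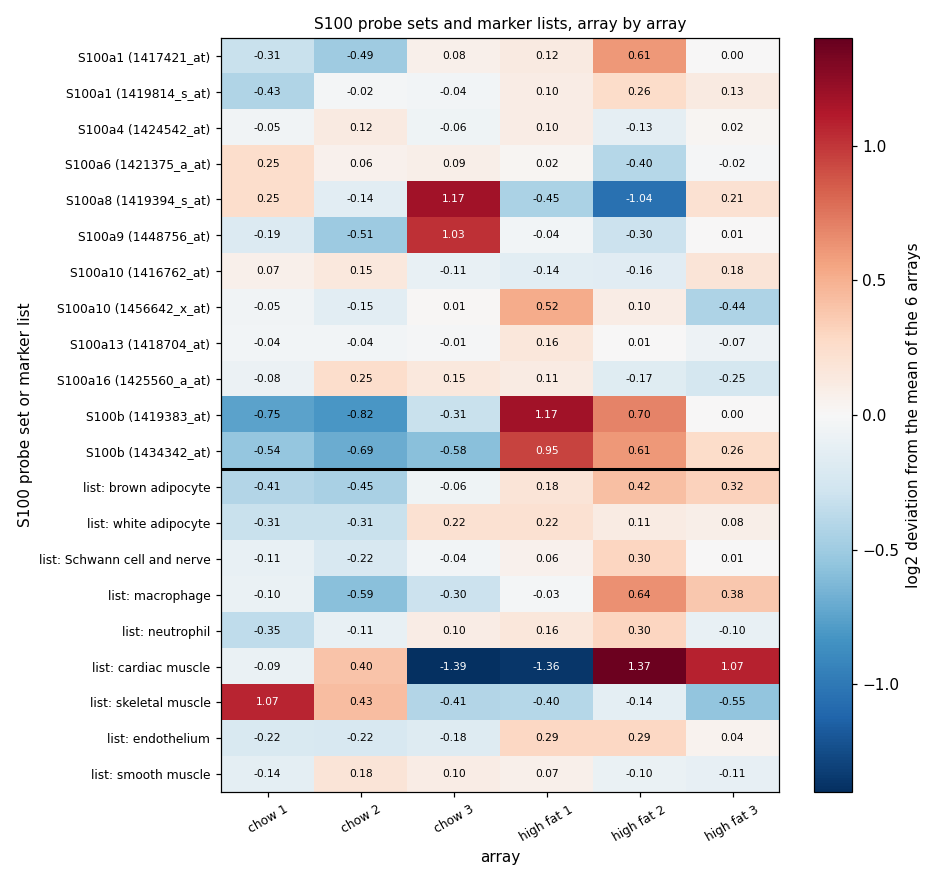
Deviation of each S100 probe set and of the mean of 9 marker lists (rows) from its mean over the 6 arrays (columns), on the scale log2(signal + 6), with values printed in the cells; marker lists hold all members on the array. S100b is above its mean in the high fat pools, S100a8 and S100a9 reach 1.17 and 1.03 in chow replicate 3, and the cardiac list runs from -1.39 to 1.37.

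**Figure D4:**
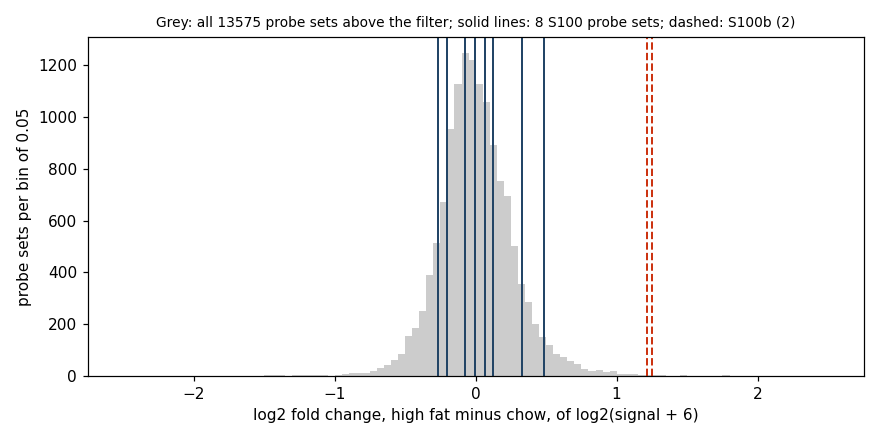
Number of probe sets (y axis, per bin of 0.05) by log2 fold change, high fat minus chow (x axis), for all 13575 probe sets above the filter in grey. Solid lines mark the 8 tested S100 probe sets, between -0.26 and 0.49, and dashed lines the 2 of S100b at 1.21 and 1.25.

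The receptors of released S100 proteins were measured as a list of 8, of which 7 passed the filter and none passed the adjusted threshold (limma). Before adjustment 1 was at p under 0.05, against 7.03% of all probe sets. The median log2 difference of the 7 was -0.18, with 2 higher and 5 lower. Ager, the receptor RAGE, had signals of 8.0, 7.7 and 20.8 on chow and 16.2, 5.7 and 9.7 on high fat diet, under the filter. Tlr4 had 110.1, 85.7 and 93.9 against 83.1, 96.7 and 86.0, which overlapped. Cd36, a fatty acid transporter that also binds S100a8 with S100a9, had 678.4, 781.5 and 1096.0 on chow and 1324.0, 1828.7 and 1510.5 on high fat diet, without overlap (log2 difference 0.88, adjusted p = 0.299, limma). Cd14, the TLR4 co-receptor, had 150.6, 157.3 and 193.3 against 125.7, 146.4 and 126.9, lower in every high fat pool (adjusted p = 0.752).

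Signalling genes below RAGE and TLR4 numbered 9 of 12 above the filter, with a median log2 difference of 0.03. None passed in limma, whether adjusted or at p under 0.05 before adjustment. Diaph1, the formin bound by the RAGE tail, had a difference of 0.16 (adjusted p = 0.873), and Irak1, a kinase of the TLR pathway, had 0.16 (adjusted p = 0.882).

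Of 12 annexins, 8 passed the filter and none the adjusted threshold, and the median log2 difference was 0.05. Anxa2, the partner of S100a10, had 1737.2, 2195.9 and 2288.1 on chow and 2445.9, 2912.5 and 2458.5 on high fat diet, without overlap, a difference of 0.33 (adjusted p = 0.675, limma). Anxa1, the partner of S100a11, had 1340.9, 1513.9 and 1385.1 against 1192.7, 1519.4 and 1638.9, which overlapped. Anxa5 had a difference of 0.18 (adjusted p = 0.817).

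Intracellular partners of S100 proteins numbered 17 of 22 above the filter, 6 higher and 11 lower, with a median of -0.06. None passed in limma, whether adjusted or at p under 0.05 before adjustment. Ryr2, the cardiac calcium release channel bound by S100a1, had 174.3, 151.8 and 121.6 on chow and 156.3, 209.9 and 236.9 on high fat diet (log2 difference 0.41, adjusted p = 0.736), and it belongs to the cardiac list too. Capza1, a subunit of the actin capping protein bound by S100b, had 474.2, 493.6 and 528.4 against 416.2, 432.9 and 464.6, lower in every high fat pool (-0.19, adjusted p = 0.811). Clstn3, whose adipocyte isoform is known to promote S100b secretion, had 347.7, 247.3 and 307.2 against 337.7, 306.2 and 240.7, which overlapped. Whether this probe set reads that isoform is not known here.

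Other EF-hand calcium sensors served as a wider comparison. Of 26 listed, 16 passed the filter, 8 higher and 8 lower, with a median of -0.02 and none past the adjusted threshold. An unadjusted p under 0.05 in limma was reached by 2 of the 16, against 7.03% of all probe sets. Pvalb, the parvalbumin of fast skeletal muscle, had 95.4, 65.9 and 46.8 on chow and 28.4, 33.1 and 17.3 on high fat diet, a log2 difference of -1.21 (adjusted p = 0.432). Pvalb is also 1 of the 4 skeletal muscle markers above the filter. Of the others Tnnc2, fast troponin C, had 132.3, 96.2 and 50.7 against 19.7, 32.1 and 34.1 (-1.45, adjusted p = 0.330). Acta1 had a lower mean with overlap between the diets (-0.44) and Ckm a higher mean (0.13). The 4 thus did not all share 1 direction. Under the filter, Myh1, Mylpf and Tnnt3 were lower in every high fat pool. Myh4 and Actn3 had lower means with overlap, and Myh2 a higher one with overlap. The part of skeletal muscle in the Pvalb values was not tested. Efhd1, a mitochondrial EF-hand protein, had 1440.6, 1507.9 and 1252.7 against 1114.9, 932.3 and 1240.2, lower in every high fat pool (-0.36, adjusted p = 0.646).

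Of the S100 genes beyond the listed members, S100a3 and S100a5 passed the filter and S100a14 and S100g did not. S100a5, a neighbour of S100a4 and S100a6, had 52.9, 60.8 and 55.9 on chow and 61.9, 92.9 and 69.2 on high fat diet, higher in every high fat pool (log2 difference 0.35, adjusted p = 0.780, limma). S100a3 had 52.1, 36.4 and 29.8 against 53.1, 64.9 and 26.7, which overlapped. S100a14 stayed between 1.0 and 6.6, and S100g between 0.5 and 5.3. S100pbp, which is not itself an S100 protein, had 104.8, 138.7 and 114.9 against 71.9, 88.9 and 97.3, lower in every high fat pool (-0.45, adjusted p = 0.678, limma).

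The named genes whose pattern over the 6 arrays lay closest to S100b were found by the mean absolute difference of log2 values, each centred on its own mean. For 1434342_at these were Pla2g7, a lipoprotein-associated phospholipase, at 0.18, Idh3a and Cox7a1, of mitochondrial metabolism, at 0.19 and 0.20, Slc25a42, a mitochondrial carrier, at 0.20, and Cacng1, a calcium channel subunit of skeletal muscle, at 0.20. For 1419383_at they were Pfkl, the liver-type phosphofructokinase, at 0.23, Grip1 at 0.24, Slc25a42 at 0.24, Tie1, an endothelial receptor, at 0.26 and Plekhn1 at 0.26. Slc25a42 alone was named for both, with signals of 122.9, 164.2 and 157.8 on chow and 316.1, 339.9 and 250.4 on high fat diet. Genes were picked from all probe sets above the filter for this likeness over 6 arrays, and a rise on high fat diet is built into it. For S100a8, itself under the filter, the closest were Dcaf12, Rap2b, Crbn, Trpc1 and Slc30a4, at 0.22 to 0.25. All of them were highest in chow replicate 3, as S100a8 was, and this too is built into the choice by likeness. Dcaf12 was 169.3 there, beside 62.5 to 121.5 on the other arrays.

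The arrays as a whole were alike, with median signals of 58.4 to 66.6 and a mean correlation with the others of 0.953 to 0.965, lowest for high fat replicate 2. Markers of smooth muscle, the main cell of the aortic wall, were all present, with a summed signal of 21338 to 27127. Endothelial markers differed, with a summed signal of 1105.6 to 1137.9 on chow and 1273.7 to 1491.4 on high fat diet, without overlap. Of the 7, all above the filter, 6 had higher means (median log2 difference 0.39), beside 48.17% of all probe sets tested. Cldn5 and Tie1 had the smallest p (adjusted p = 0.0873 and 0.536, limma), and none passed. Keratinocyte markers, another cell type rich in S100 proteins, were all under the filter.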

How the data were processed

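The authors deposited signal intensities, unlogged, for every probe set of each array. The submitters' processing notes name MAS5, which summarises perfect match and mismatch probes, without settings. The 2% trimmed mean was 150.05 on each array, and the authors' scaling was kept. After 64 controls were left out, 22626 probe sets remained, of which 20380 had 1 gene symbol in the platform annotation, 691 several and 1555 none. Signals were transformed as log2(signal + 6), the pseudocount being the 10th percentile, so that fold changes of low genes are understated. Probe sets above the 40th percentile of mean log2 value, 13575, were compared between diets with limma 3.58.1 in R 4.3.3 (two-sided, variance trend in eBayes), the p-values adjusted by Benjamini-Hochberg over all of them, at a threshold of 0.05. Lists used 1 probe set per gene, that of highest mean. Each list was to be named by genes past the threshold or else the 2 of smallest p, but several cell type lists were given as a whole. Members, Fgf1, Clstn3, Ager, Tlr4, Anxa1, Padi4, Gfap and the unlisted S100 genes were named for their role. Lep, Cidec, Gap43, Ucp1, Adipoq, Dcn and the skeletal muscle markers other than Tnnc2 and Pvalb were named outside this rule, with their values known. So were Csf3r, Cxcr2, Vwf, Kdr, Pecam1, Tagln and Cnn1. The members and lists were chosen with earlier results of these data known. The steps were tested on simulated data. Alternatives were 2 other scalings, 2 pseudocounts, 2 filters, no variance trend, a replicate block, each array left out and, added later, a cardiac covariate. Promoter windows are from RefSeq, GRCm38.p6. P-values set the diet difference against the variance between pools, moderated over all probe sets tested, and 3 pools per diet limit the precision. Variation between the mice within a pool was not measured.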

Additional observations from a re-analysis of the deposited data

How the results depend on the processing

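No S100 probe set other than those of S100b passed in any of 15 other settings in limma. Both S100b probe sets stayed higher on high fat diet in all 15, between 0.98 and 1.56 and between 1.04 and 1.39. S100b was picked for this rise in the same arrays, so these values are a description and no support for it. Settings that changed only the filter, the variance trend or the block cannot alter the log2 difference, which stayed at 1.25 and 1.21 there. S100a4, at -0.0046, was 0.0069 with quantile normalization, 0.012 with the cardiac covariate and -0.055 to 0.059 with 1 array left out, above 0 when high fat replicate 2 or chow replicate 2 was the one. S100a10 at 1456642_x_at, at 0.12, was -0.11 to 0.37 with 1 array left out, and below 0 in the case of high fat replicate 1. The count over all probe sets, 10, was 6 without a filter, 5 without a variance trend, 6 with the cardiac covariate and 5 to 16 with 1 array left out (5 for high fat replicate 2 or chow replicate 2, 16 for high fat replicate 1). With the replicate block it was 5, and the 8 S100 probe sets had 0 calls as before. The deviations of same-numbered pools correlated at 0.03, 0.17 and -0.11, and those of differently numbered pools at -0.16 to 0.14. With 3 pools per diet, centred within each diet, these values cannot show whether the replicate numbers pair the pools. The causes were not tested. Without chow replicate 1 the skeletal muscle median was 0.05 in place of -0.82, and with the filter at the 60th percentile it was -0.16. The cardiac median of 0.69 was 0.08 to 1.60 with 1 array left out. The call of Retn was lost with the replicate block and in 3 other settings that kept all arrays. The median of the receptor list was -0.05 without high fat replicate 2. Low signal limits S100a8 and S100a9 most: 42.0% to 46.3% of signals on an array were under 50.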
